A study of Homo sapiens with 6 samples.

Results

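The genes of catecholamine synthesis, transport and breakdown were examined after CBR-470-1 treatment of IMR32, a cell line from a human neuroblastoma. The members were chosen by name, as the 9 rows for TH, GCH1, DDC, DBH, SLC18A1, SLC18A2, SLC6A2, MAOA and MAOB among the 35473 gene rows of the deposited table. All 9 names were found. One group of 3 libraries came from cells given 5 µM CBR-470-1 for 24 h and the other group of 3 from cells given the same volume of the DMSO vehicle. All libraries came from this single cell line, without genetic changes stated in the labels, and the design states independent biological replicates. CBR-470-1 is known as a small molecule that slows glycolysis at phosphoglycerate kinase and activates the transcription factor NRF2, the pathway named in the series title.

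Noradrenaline is made from tyrosine in sympathetic neurons and adrenal chromaffin cells, the lineage from which neuroblastoma arises. Tyrosine hydroxylase makes L-DOPA, an aromatic amino acid decarboxylase makes dopamine, and dopamine β-hydroxylase makes noradrenaline inside the secretory vesicle. Vesicular transporters load the amines, a plasma membrane transporter takes noradrenaline back up after release, and monoamine oxidases on the mitochondrial outer membrane degrade what remains in the cytosol.

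Levels are given in TPM, which divides the reads of a transcript set by length and states them as a share of the library, so that levels of different genes can be set side by side. The library totals lay between 972453 and 973696 TPM, and the read depth behind a value is unknown. The treatment response was visible in NQO1, a quinone reductase and NRF2 target, which stood at 3.74 to 5.31 TPM with DMSO and 61.4 to 70.6 TPM with CBR-470-1. The cells carried the markers of the line: all 7 neuroblastoma markers examined were expressed, with MYCN at 1078 to 1236 TPM. Markers of blood, endothelial and epithelial cells, 9 in number, each stayed under 1 TPM. They summed to 0.476 to 0.708 TPM with DMSO and 0.682 to 1.22 TPM with CBR-470-1, and CD3E, HBB and KRT5 were listed at 0 in every library. Schwann and mesenchymal markers, 8 in number, summed to 9.92 to 14.1 TPM with DMSO and 10.6 to 12.0 TPM with CBR-470-1. Of these, 3 averaged at least 1 TPM. Over all 6 libraries PRRX1 was at 3.29 to 5.60 TPM, COL1A1 at 2.59 to 3.04 TPM and CD44 at 1.43 to 3.85 TPM. The other 5 averaged under 1 TPM, with SOX10 between 0 and 0.0736 TPM.

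Transcripts for noradrenaline synthesis, reuptake and breakdown by MAOA were present in every library, whereas those of the vesicular monoamine transporters and MAOB were near 0. DBH fell with CBR-470-1, and the genes for the synthesis steps before it did not pass the test. SLC6A2 had higher values in all 3 CBR-470-1 libraries without passing the test. Of the 9 members, 6 reached the mean of at least 1 TPM needed for testing. In limma over all 13470 tested genes, with an adjusted p under 0.05 as the threshold, 1 of these 6 was called lower and 0 were called higher. Over all tested genes 1.97% were called, 0.839% lower and 1.13% higher. DMSO and CBR-470-1 ranges were separate for 2 of the 6 members tested, DBH and SLC6A2, and for 30.2% of all genes tested, so that share was near the background. The median log2 fold change was 0.03 for the 6 members and 0.03 for all tested genes.

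**Figure D1:**
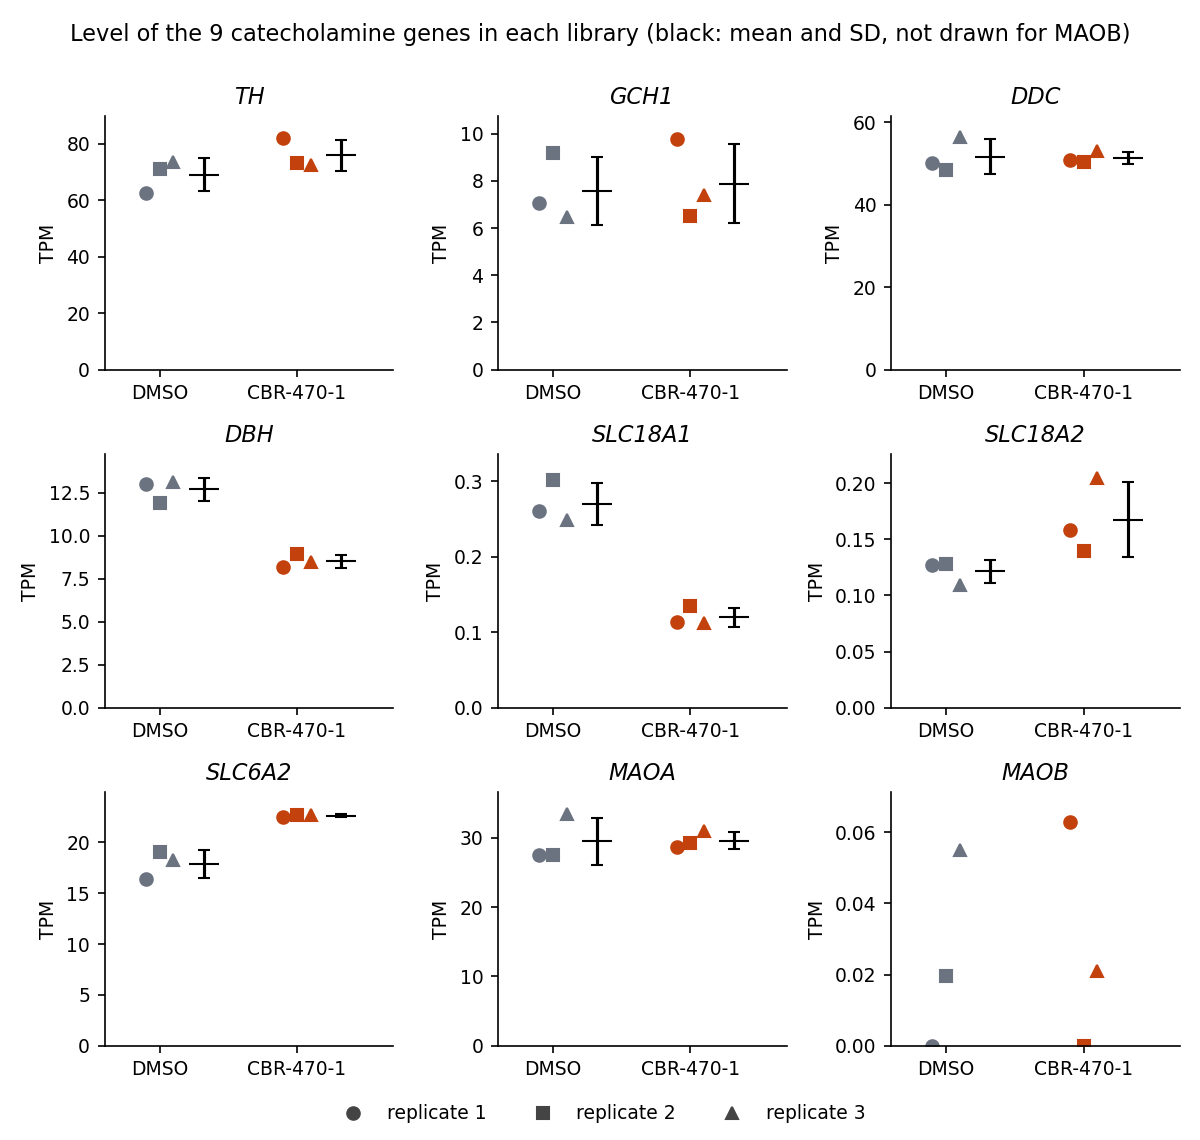
TPM of each of the 9 genes in every library, with a separate linear axis from 0 for each gene; marker shapes are the replicate numbers within a group, and black bars give the mean and SD of 3 libraries, left out for MAOB, which has libraries at 0. DBH is lower in all 3 CBR-470-1 libraries (8.18 to 8.91 TPM) than in any DMSO library (11.9 to 13.1 TPM), SLC6A2 is higher (22.5 to 22.7 against 16.4 to 19.1 TPM), and TH, GCH1, DDC, MAOA and MAOB overlap between the groups.

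TH encodes tyrosine hydroxylase, the rate-limiting enzyme of the pathway, and lies on chromosome 11 from 2163929 to 2171877 on the minus strand (ENSG00000180176.14; GRCh38, GENCODE 29, as for the other genes). It was the most abundant member, at 62.4, 71.0 and 73.6 TPM in the DMSO libraries and 82.1, 73.2 and 72.4 TPM in the CBR-470-1 libraries. The highest value was in CBR-470-1 and the lowest in DMSO, but the groups overlapped. The means were 69.0 ± 5.88 and 75.9 ± 5.38 TPM (SD, n = 3 each). The log2 fold change on the scale of TPM + 1 was 0.14 (95% interval -0.05 to 0.32; limma adjusted p = 0.334). Without the trends with GC content and transcript length the log2 fold change was 0.23, which did not pass either (limma adjusted p = 0.0759).

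GCH1 encodes GTP cyclohydrolase, which starts the synthesis of tetrahydrobiopterin, the cofactor of tyrosine hydroxylase, and lies on chromosome 14 from 54842008 to 54902852 on the minus strand. It stood at 7.07, 9.20 and 6.48 TPM with DMSO and 9.76, 6.49 and 7.40 TPM with CBR-470-1. Each group held a library above 9 TPM and a library under 7 TPM, so the spread within a group was larger than the difference between the means of 7.58 and 7.89 TPM. Its interval was the widest among the tested members, from -0.34 to 0.43 on the log2 scale (limma adjusted p = 0.889).

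DDC encodes the aromatic L-amino acid decarboxylase, which makes dopamine from L-DOPA, and lies on chromosome 7 from 50458436 to 50565457 on the minus strand. Its levels were 50.1, 48.4 and 56.4 TPM with DMSO and 50.8, 50.4 and 52.9 TPM with CBR-470-1. The CBR-470-1 libraries all lay inside the DMSO range. The log2 fold change was -0.0053, with an interval from -0.16 to 0.15 (limma adjusted p = 0.971).

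DBH encodes dopamine β-hydroxylase, the copper enzyme that converts dopamine to noradrenaline, and lies on chromosome 9 from 133635348 to 133659344 on the plus strand (ENSG00000123454.11). Its levels were 13.0, 11.9 and 13.1 TPM in the DMSO libraries and 8.18, 8.91 and 8.45 TPM in the CBR-470-1 libraries. Every CBR-470-1 library lay under every DMSO library, and the gap between the groups was wider than the range within either. The mean fell from 12.7 ± 0.683 to 8.51 ± 0.372 TPM (SD, n = 3 each), a ratio of 0.671. The log2 fold change was -0.53 (SE 0.0738, 95% interval -0.70 to -0.35; limma adjusted p = 0.0247), and the gene ranked 80th by p among the 13470 tested. With the trends with GC content and transcript length removed from each library, the log2 fold change was -0.47. The call was lost in each of the 6 fits that left out 1 library (adjusted p from 0.0703 to 0.108, log2 fold change from -0.57 to -0.50) and with no filter on low values (adjusted p = 0.0601). It was also lost with the replicate number as a block, without and with those trends removed (limma adjusted p = 0.109 and 0.1075). The antisense gene DBH-AS1, which shares 118 exon bases with DBH, was at 0.468 TPM with DMSO and 0.433 TPM with CBR-470-1 on average. In bulk RNA, fewer cells expressing a gene and less RNA per cell cannot be told apart.

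The bases before the RefSeq start of DBH are shown because it was the member called, and because the cAMP response element is a known kind of control site of catecholamine enzyme genes. The sequence is the 250 bases before the RefSeq start (GRCh38.p14, plus strand, chr9:133636113-133636362), and the capitals mark the only motif match found in it, TGACG, the shorter core of the cAMP response element TGACGTCA. The RefSeq start lies downstream of the GENCODE 29 start given above, so the window falls inside the gene as GENCODE 29 draws it.
DBH: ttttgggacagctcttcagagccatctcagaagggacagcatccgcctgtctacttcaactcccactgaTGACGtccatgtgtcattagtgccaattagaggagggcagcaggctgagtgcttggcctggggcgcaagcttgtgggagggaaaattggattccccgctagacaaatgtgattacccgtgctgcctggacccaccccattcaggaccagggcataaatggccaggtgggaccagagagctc
The match starts 181 bases before the RefSeq start. TGACG occurred on either strand in 21.2% of 35116 such windows over all genes, so its presence is common. The antioxidant response element core TGACNNNGC, which 10.9% of windows hold, the full TGACGTCA (1.65%) and TATAAA (10.7%) were not matched in this window. A homeodomain site was searched only as TAAT and ATTA cores paired at a fixed spacing (0.33%), and that pair was not matched. Single cores were not searched for, and the window does hold single ATTA cores after the TGACG. The search therefore does not show that the window lacks homeodomain sites. Both strands were searched for every motif, and TGACG is also found inside each TGACGTCA. Of the members, 5 had entries in the RefSeq table, DBH, DDC, SLC18A2, MAOA and MAOB, with 6 windows between them. The only other matches were the full TGACGTCA and the TGACG within it, in the SLC18A2 window. A match describes letters and not binding.

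SLC6A2 encodes the noradrenaline transporter of the plasma membrane, which takes the transmitter back up, and lies on chromosome 16 from 55655604 to 55706192 on the plus strand (ENSG00000103546.18). Its levels were 16.4, 19.1 and 18.2 TPM with DMSO and 22.5, 22.7 and 22.7 TPM with CBR-470-1. All 3 CBR-470-1 libraries were above all 3 DMSO libraries and lay closer together than the DMSO libraries did. The means were 17.9 ± 1.37 and 22.6 ± 0.127 TPM (SD, n = 3 each), a ratio of 1.26. The log2 fold change was 0.32 (SE 0.0696, 95% interval 0.16 to 0.49), and it missed the threshold (limma adjusted p = 0.0642). It passed as higher when only genes averaging 5 TPM or more were tested (adjusted p = 0.0494) and after the correction for GC content and length (adjusted p = 0.0465). SLC6A2 shares 977 exon bases on the same strand with AC136621.1, so reads from those bases cannot be told apart. The deposited values have no row under the name AC136621.1.

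**Figure D2:**
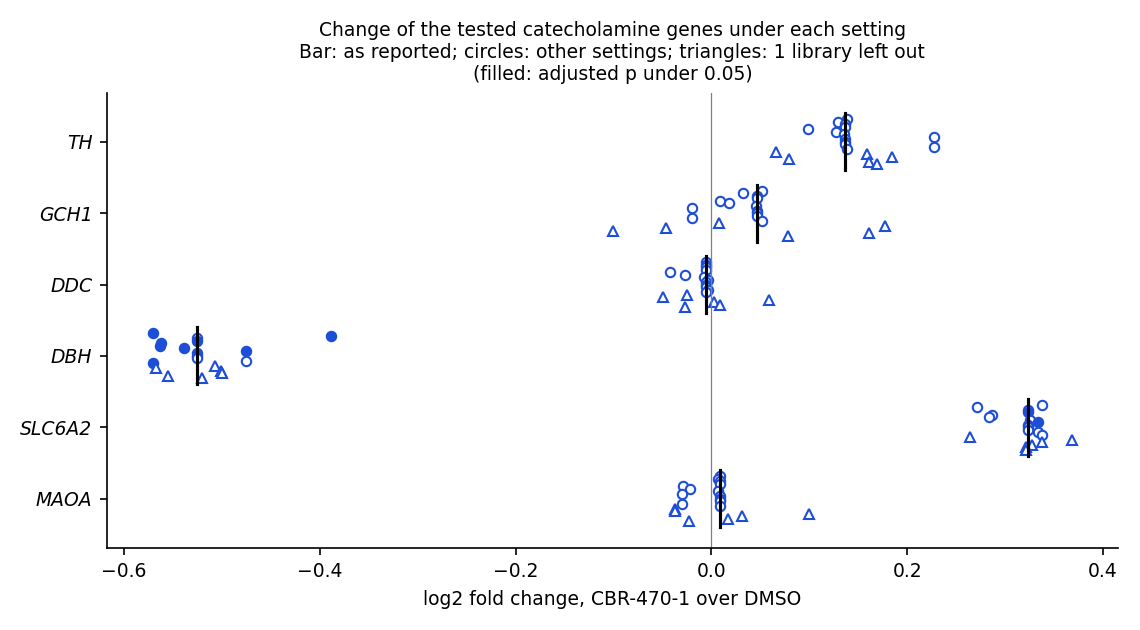
Log2 fold change of the 6 tested members, CBR-470-1 over DMSO, in each setting: the black bar is the reported value, circles are other settings of the processing, triangles are fits without 1 library, and filled points have an adjusted p under 0.05. DBH stays between -0.57 and -0.39 and SLC6A2 between 0.26 and 0.37, while GCH1, DDC and MAOA lie on both sides of 0.

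DBH and SLC6A2 thus had log2 fold changes of opposite sign, and their ratio within a library does not depend on how the library was scaled. SLC6A2 over DBH was 1.26, 1.60 and 1.39 in the DMSO libraries and 2.75, 2.54 and 2.68 in the CBR-470-1 libraries. DBH over TH was 0.209, 0.168 and 0.179 in DMSO and 0.0996, 0.122 and 0.117 in CBR-470-1. Neither ratio overlapped between the groups, whereas TH over DDC did, at 1.24 to 1.47 in DMSO and 1.37 to 1.62 in CBR-470-1. For SLC6A2 over DBH the separation follows from the single genes, whose ranges were separate in opposite directions, and adds nothing to them. These ratios were chosen after the values had been seen and were not tested, and an exact permutation test of 3 against 3 could not go below p = 0.1.

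**Figure D3:**
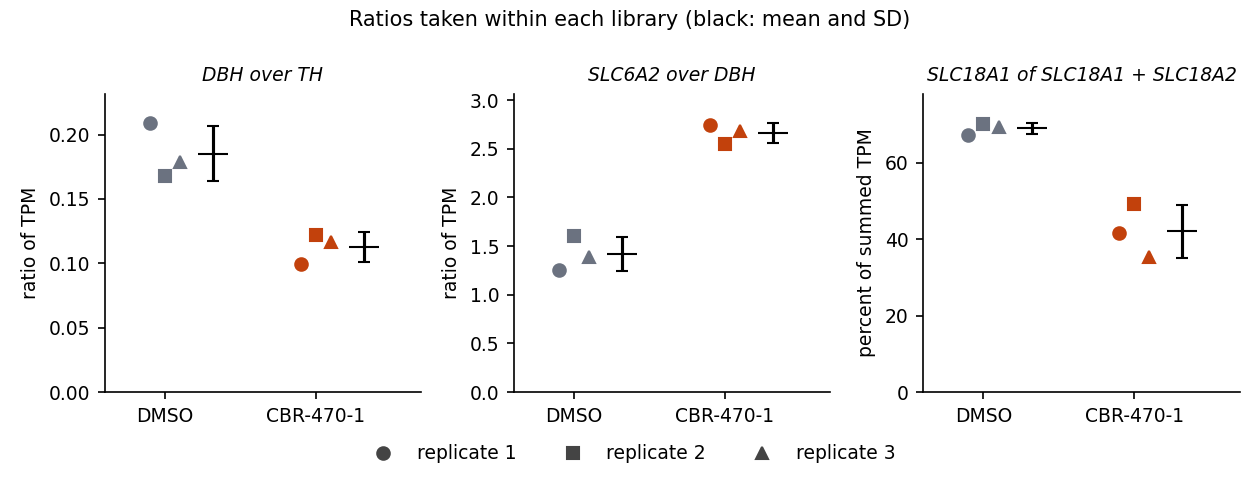
Ratios computed within each library from TPM: DBH over TH, SLC6A2 over DBH, and SLC18A1 as a percent of SLC18A1 plus SLC18A2; points are libraries (shape: replicate number within a group) and black bars the mean and SD of 3. In each panel the groups do not overlap. For SLC6A2 over DBH and for the SLC18A1 percent this follows from single genes with separate ranges in opposite directions. SLC6A2 over DBH is 1.26 to 1.60 in DMSO and 2.54 to 2.75 in CBR-470-1.

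SLC18A1 and SLC18A2 encode the vesicular monoamine transporters VMAT1 and VMAT2, which load amines into vesicles. Both lay under the minimum of 1 TPM and were not tested. SLC18A1 was at 0.260, 0.301 and 0.249 TPM with DMSO and 0.113, 0.135 and 0.112 TPM with CBR-470-1, lower in every CBR-470-1 library. SLC18A2 was at 0.127, 0.128 and 0.110 TPM with DMSO and 0.158, 0.139 and 0.204 TPM with CBR-470-1, higher in every CBR-470-1 library. SLC18A1 therefore made up 67.3% to 70.2% of the summed level in DMSO and 35.4% to 49.1% in CBR-470-1. The counts of reads behind such low TPM values are unknown. When all rows above 0 were tested with a pseudocount of 0.1 TPM, a setting added after these levels had been seen, the log2 fold change was -0.75 for SLC18A1 (95% interval -1.29 to -0.21; limma adjusted p = 0.201) and 0.27 for SLC18A2 (-0.28 to 0.81; limma adjusted p = 0.630). SLC18A2 shares 2157 exon bases with PDZD8 on the opposite strand, which stood at 28.6 TPM with DMSO and 32.1 TPM with CBR-470-1. The labels name no strand-marking kit, so reads from the shared bases cannot be told apart and the SLC18A2 values are uncertain.

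MAOA and MAOB encode the monoamine oxidases, MAOA preferring noradrenaline and serotonin, and lie next to each other on the X chromosome in opposite directions. MAOA, from 43654907 to 43746824 on the plus strand, was at 27.5, 27.5 and 33.4 TPM with DMSO and 28.6, 29.2 and 30.9 TPM with CBR-470-1. All 3 CBR-470-1 values fell inside the DMSO range, which DMSO replicate 3 set at its upper end. The log2 fold change was 0.0086, with an interval from -0.19 to 0.21 (limma adjusted p = 0.964). MAOB, from 43766611 to 43882447 on the minus strand, was listed at 0, 0.0196 and 0.0550 TPM with DMSO and at 0.0627, 0 and 0.0209 TPM with CBR-470-1. MAOA thus held from 99.8% to 100% of the summed monoamine oxidase level in each library. The 250 bases before each RefSeq start (GRCh38.p14) are shown because these neighbouring genes of the same family differ widely in level. They lie at chrX:43656049-43656298 on the plus strand for MAOA and at chrX:43882451-43882700 on the minus strand for MAOB. The MAOA window also falls inside its GENCODE 29 gene, and the MAOB window lies just outside its own. No listed motif was matched in either, so no base is in capitals.
MAOA: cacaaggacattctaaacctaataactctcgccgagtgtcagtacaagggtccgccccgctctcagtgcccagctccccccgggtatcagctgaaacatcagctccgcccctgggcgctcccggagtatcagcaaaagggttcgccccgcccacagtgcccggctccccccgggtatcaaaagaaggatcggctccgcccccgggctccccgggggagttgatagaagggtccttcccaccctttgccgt
MAOB: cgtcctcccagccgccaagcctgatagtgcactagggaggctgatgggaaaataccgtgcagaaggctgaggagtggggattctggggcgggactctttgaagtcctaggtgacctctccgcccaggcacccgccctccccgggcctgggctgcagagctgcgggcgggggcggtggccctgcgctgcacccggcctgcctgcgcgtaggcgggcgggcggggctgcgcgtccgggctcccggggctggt
Their G and C content was 63.2% for MAOA and 72.0% for MAOB, against a median of 58% over all windows.

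By level the order in DMSO was TH, DDC, MAOA, SLC6A2, DBH, GCH1, SLC18A1, SLC18A2 and MAOB, and no neighbours in this order had overlapping ranges. In CBR-470-1 the first 6 kept this order, but DBH (lowest 8.18 TPM) and GCH1 (highest 9.76 TPM) overlapped, which they did not in DMSO (lowest 11.9 and highest 9.20 TPM). SLC18A2 then stood above SLC18A1, with its lowest library at 0.139 TPM and the highest SLC18A1 library at 0.135 TPM. That gap is small at an unknown read depth, and the SLC18A2 values are uncertain because of the bases shared with PDZD8. The changed order of these genes was not tested.

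Genes that supply tetrahydrobiopterin did not pass the test. Of 7 tested, 0 were called higher and 0 were called lower, with a median log2 fold change of 0.0093. PTS, which acts after GCH1 in the synthesis, was at 45.3 to 46.8 TPM with DMSO and 52.5 to 54.6 TPM with CBR-470-1 (limma adjusted p = 0.0616). PCBD1, which recycles the cofactor after hydroxylation, was at 37.5 to 41.3 TPM with DMSO and 29.3 to 32.8 TPM with CBR-470-1 (limma adjusted p = 0.0581). For GCHFR, the feedback regulator of GCH1, the log2 fold change was -0.25 (limma adjusted p = 0.264). PTS and PCBD1 had groups that did not overlap and opposite signs, so the list had no common direction. PCBD1 alone of these passed as lower when only genes averaging 5 TPM or more were tested, and with median centring.

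Of 7 further cofactor genes, for pyridoxal phosphate, ascorbate and copper supply, 6 were tested and 0 passed (median log2 fold change 0.06). The copper transporter ATP7A and the copper chaperone ATOX1, which serve copper enzymes such as DBH, had values of 0.15 and -0.09 on the log2 scale and did not pass (limma adjusted p = 0.327 and 0.359). PDXK, which makes the pyridoxal phosphate that DDC uses, was at 26.7 to 28.4 TPM with DMSO and 28.9 to 33.4 TPM with CBR-470-1 (limma adjusted p = 0.289).

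Among 10 genes of further monoamine metabolism and uptake, 4 were abundant enough to test, 0 were called higher and 1 was called lower. This was SLC29A4, the plasma membrane monoamine transporter, a low-affinity carrier of dopamine and serotonin. It was at 52.9, 48.7 and 56.9 TPM with DMSO and 42.0, 39.5 and 39.0 TPM with CBR-470-1, lower in every CBR-470-1 library. The mean fell from 52.8 ± 4.08 to 40.2 ± 1.60 TPM (SD, n = 3 each), a log2 fold change of -0.39 (SE 0.0682; limma adjusted p = 0.0437). Its call was lost whenever 1 library was left out (adjusted p from 0.0734 to 0.140), with no filter (adjusted p = 0.0931, or 0.0847 with a pseudocount of 0.1 TPM) and with no variance trend (adjusted p = 0.0848). ALDH2, which oxidises the aldehydes that monoamine oxidase makes, had means of 59.6 and 63.6 TPM (limma adjusted p = 0.345), and the aldehyde reductase AKR1B1 of 206 and 197 TPM (limma adjusted p = 0.315). The median of the 4 was -0.04.

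**Figure D4:**
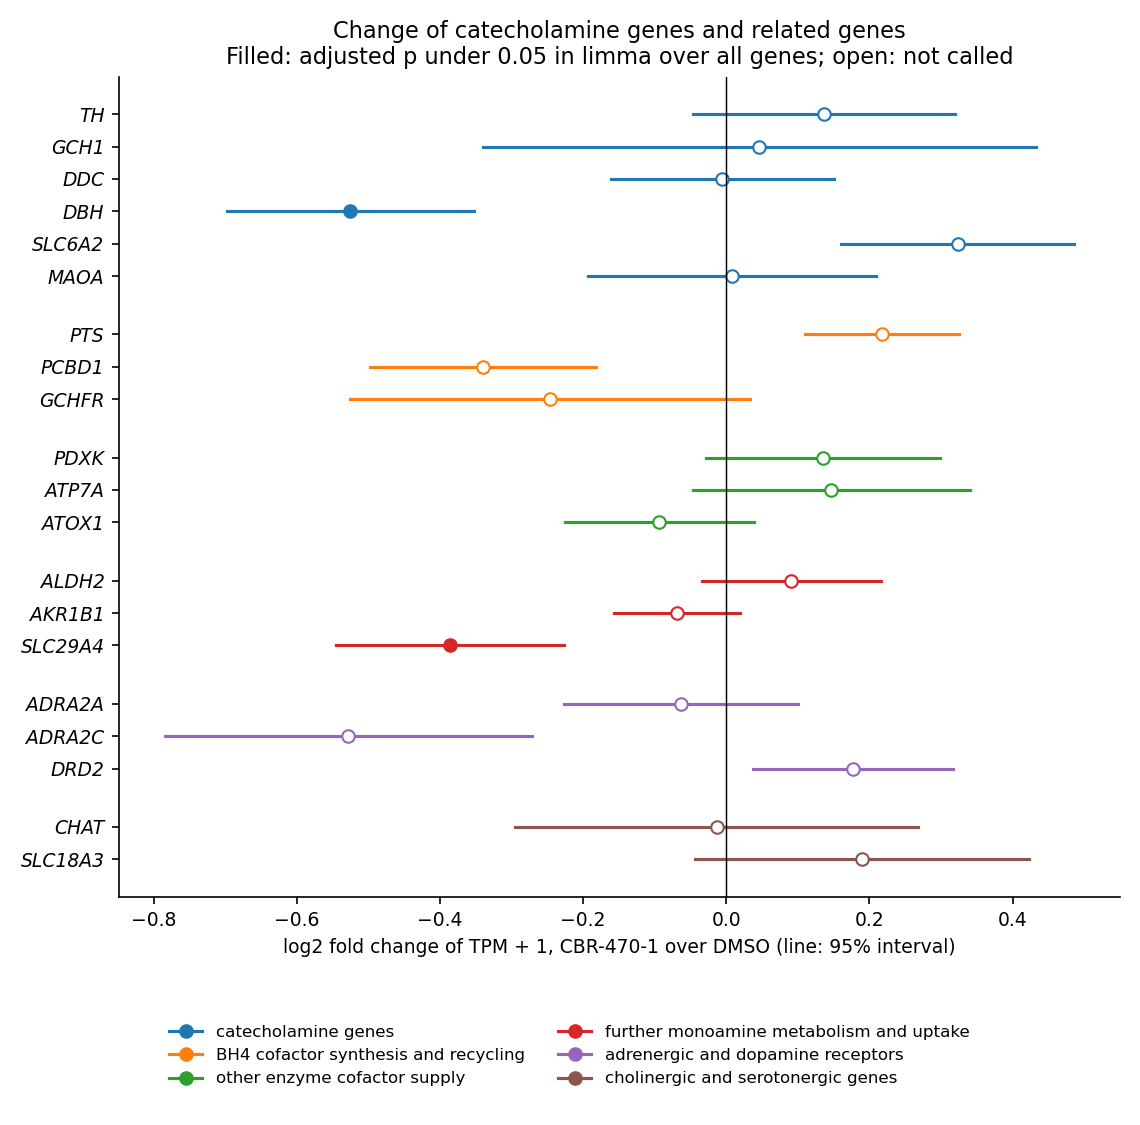
Log2 fold change on the TPM + 1 scale, CBR-470-1 over DMSO, with 95% intervals from limma, for the 6 tested catecholamine genes and, from each of 5 related lists, the called genes and up to 3 tested genes with the largest absolute change; filled points have an adjusted p under 0.05 over all 13470 tested genes. Only DBH (-0.53) and SLC29A4 (-0.39) are filled, both lower in CBR-470-1.

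Among 14 adrenergic and dopamine receptor genes 3 were tested and 0 passed. DRD2, the D2 dopamine receptor, was the most abundant at 48.8 to 53.4 TPM with DMSO and 55.5 to 61.2 TPM with CBR-470-1 (limma adjusted p = 0.139). ADRA2C, an α2 receptor through which noradrenaline inhibits its own release, was at 7.18, 8.13 and 9.28 TPM with DMSO and 5.87, 4.95 and 5.26 TPM with CBR-470-1. Its groups did not overlap, and its log2 fold change of -0.53 (SE 0.110) missed the threshold (limma adjusted p = 0.0603). It passed in 3 of the other settings, among them the test of genes averaging 5 TPM or more. The related receptor gene ADRA2A had means of 20.8 and 19.9 TPM (limma adjusted p = 0.617).

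Of 10 transcription factors of noradrenergic identity, all tested, 0 rose and 0 fell, with a median log2 fold change of -0.05. PHOX2A, a known activator of DBH, had means of 319 TPM with DMSO and 306 TPM with CBR-470-1. For GATA3 the log2 fold change was -0.21 and for TFAP2B -0.15 (limma adjusted p = 0.148 and 0.537). The summed level of the neuroblastoma markers was 2542 to 2731 TPM with DMSO and 2429 to 2469 TPM with CBR-470-1. That sum was lower in each library in which DBH was lower. In this list 1 of 7, the vesicle protein gene CHGA, was called lower (log2 fold change -0.23, limma adjusted p = 0.0468). It lost that call after the correction for GC content and length (adjusted p = 0.0545), with quantile normalization (adjusted p = 0.0523), with no variance trend (adjusted p = 0.110), with no filter (adjusted p = 0.0990, or 0.0953 with a pseudocount of 0.1 TPM) and in each fit that left out 1 library (adjusted p from 0.0810 to 0.153). The part of these markers in the DBH result was not tested.

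The 2 genes nearest to each member of at least 5 TPM were found by the distance between log2(TPM + 1) profiles, each centred on its own mean, over the 6 libraries. For DBH these were IGFBP5, an insulin-like growth factor binding protein gene (distance 0.101), and the neuropeptide gene NPY (distance 0.129). IGFBP5 had means of 27.0 and 18.1 TPM and NPY of 6.85 and 4.59 TPM with DMSO and CBR-470-1. Both were called lower (limma adjusted p = 0.0133 and 0.0349). Because the profiles include the difference between the groups, a shared direction with DBH follows from the choice and is not separate evidence. NPY lost its call in each fit without 1 library (adjusted p from 0.0756 to 0.123) and with no filter (adjusted p = 0.0866, or 0.0648 with a pseudocount of 0.1 TPM). IGFBP5 lost its call in the fits without CBR-470-1 replicates 1, 2 and 3 (adjusted p = 0.0583, 0.0683 and 0.0786). For SLC6A2 they were YPEL5 (0.0711), with means of 12.9 and 15.8 TPM, and RIT1 (0.0860), with means of 16.9 and 20.8 TPM. They were ULK3 and LAMP1 for TH, HIST2H2BC and TLE2 for GCH1, and ZNF71 and ENTPD7 for MAOA. LPCAT1 was the nearest for DDC. After the correction for GC content and length 1 of the 2 genes was shared for DBH, NPY, and 0 of 2 for SLC6A2, so nearness of this kind depended on the processing.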

How the data were processed

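Libraries were made from polyA RNA with an NEBNext Ultra kit, per the labels' protocols. Per the submitters' processing notes, bcl2fastq and Salmon 0.7.2 were used with the build GRCh38. Which transcript models, Salmon settings and gene-level summing were used is not given in the sources used here. The authors deposited TPM values per gene symbol and library. TPM is a share of a library and keeps no depth, so counting error and detection limits are unknown, and only the 3 libraries of each group show the precision.

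The 13470 rows averaging 1 TPM or more were tested on the log2(TPM + 1) scale in limma 3.58.1 under R 4.3.3 (treatment as the sole term, a variance trend in the empirical Bayes step, two-sided, Benjamini-Hochberg over all tested rows, adjusted p under 0.05). Fold changes on this scale understate the change of low genes. The test was tried on simulated data with 200 changed genes among 13470. It recovered 62.5% of log2 changes of 0.5 and 92.5% of log2 changes of 1, in either direction, with 5 false calls. The simulated noise was independent and normal with the fitted variances, so it met the assumptions of the test. It held no library effects and no read counting error of its own, so these figures may be too favourable for the real data. A gene that did not pass may therefore still have changed by such an amount or less. Gene positions, GC content and longest transcript lengths came from GENCODE 29 on GRCh38: 34740 rows matched by name, 604 by synonym and 129 not at all. The GC and length correction removes from each library a spline trend with 5 degrees of freedom for each property. Upstream sequences came from RefSeq on GRCh38.p14. No row shared all its values with a member's row.

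The members and gene lists were chosen with earlier results of these data known. The text names all members, the 2 nearest genes by profile, and NQO1. From each related list it names every called gene and up to 3 tested genes with the largest absolute change. Cell type markers and genes that overlap a member are named as such. PHOX2A is named besides, after its values had been seen. TPH2, SLC6A4, PNMT, SLC6A3 and RNLS, which were not tested, also fall outside these criteria and were not picked by a rule set beforehand. Some genes that meet these criteria are not reported here. Other settings changed the pseudocount, filter, scaling, variance model, replicate block and libraries.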

Additional observations from a re-analysis of the deposited data

How the results depend on the processing

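The number of members called was 1 in the test as reported. It was 0 with no filter, 0 with the replicate number as a block, 0 with that block and the GC and length correction, and 0 to 0 when single libraries were left out. It was 2, DBH lower and SLC6A2 higher, when only genes averaging 5 TPM or more were tested and with the GC and length correction. DBH was lower in 19 of 19 alternatives (log2 fold change from -0.57 to -0.39) and called in 10. SLC6A2 was higher in 19 of 19 (0.26 to 0.37) and called in 2. All these alternatives reuse the same libraries, so the shared signs are not separate evidence. Both genes had separate ranges, so leaving out 1 library could not reverse a sign. Changing only the filter, variance model or block does not alter the log2 fold change.

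Over all genes 265 were called, against 82 with no filter, 127 with no filter and a pseudocount of 0.1 TPM (added after seeing the data), 428 for genes averaging 5 TPM or more, 83 with no variance trend and 18 to 82 when single libraries were left out. The split was 152 higher and 113 lower, but 124 and 237 with median centring and 155 and 219 with the GC and length correction. The block gave 17 calls, or 14 with the GC and length correction. With the block, and with the block and that correction, limma adjusted p was 0.116 and 0.0971 for SLC29A4, 0.136 and 0.113 for CHGA, 0.0844 and 0.0744 for IGFBP5, and 0.120 and 0.124 for NPY, so each lost its call. DBH lost its call in the same 2 settings (limma adjusted p = 0.109 and 0.1075). Same-numbered libraries had deviations correlating at -0.138, -0.0059 and -0.032, and differently numbered ones at -0.0941 to 0.136. No shared deviation of same-numbered libraries was thus seen. Such values cannot tell whether the libraries were paired by design.

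Genes with changes near 0 changed sign without being called. GCH1 went to -0.020 with the GC and length correction, with or without the block, to -0.046 without DMSO replicate 3 and to -0.10 without CBR-470-1 replicate 1; single libraries left out gave -0.10 to 0.18. DDC went to 0.059, 0.0027 and 0.0084 when DMSO replicate 3, CBR-470-1 replicate 1 and CBR-470-1 replicate 2 were each left out, within -0.050 to 0.059. MAOA went to -0.029 with median centring, -0.022 with quantile normalization, -0.030 with the GC and length correction, with or without the block, and to -0.037, -0.037 and -0.023 when DMSO replicate 1, DMSO replicate 2 and CBR-470-1 replicate 3 were each left out, within -0.037 to 0.10 over the 6 fits. CHAT went to 0.034 with the GC and length correction, with or without the block, 0.059 with DMSO replicate 3 left out and 0.051 with CBR-470-1 replicate 1 left out. The cause was not tested. The unknown depth limits what can be said of SLC18A1, SLC18A2 and MAOB.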

Other observations

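The vesicular acetylcholine transporter gene SLC18A3 was more abundant than the vesicular monoamine transporter genes in every library. It was at 8.20, 8.99 and 10.6 TPM in DMSO and 11.0, 10.1 and 10.9 TPM in CBR-470-1, while SLC18A1 and SLC18A2 together were at 0.358 to 0.429 TPM in DMSO and 0.271 to 0.316 TPM in CBR-470-1. CHAT, which makes acetylcholine, had means of 3.71 and 3.66 TPM (limma adjusted p = 0.959), and SLC18A3 did not pass either (log2 fold change 0.19, limma adjusted p = 0.297). These were the 2 tested genes of 7 on the cholinergic and serotonergic list. Tryptophan hydroxylase TPH2, for serotonin, was at 0.286 to 0.581 TPM over all 6 libraries and the serotonin transporter gene SLC6A4 at 0.0443 to 0.113 TPM. PNMT, which turns noradrenaline into adrenaline, was at 0.296 to 0.979 TPM, and the dopamine transporter gene SLC6A3 at 0.0948 to 0.264 TPM. RNLS, an oxidase gene, was under 1 TPM and not tested, at 0.174 to 0.235 TPM in DMSO and 0.0406 to 0.119 TPM in CBR-470-1, without overlap. It was not picked by a rule set beforehand.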
